A study of Homo sapiens with 12 samples.

Results

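The 34 genes described here encode proteins of homologous recombination and of the Fanconi anaemia pathway, and they were picked out by gene name from a table of 62700 genes. Each of the 34 names occurred once, and all 34 passed the filter on low counts, as did 18049 genes in all. RNA was from HCT116 TIM-mAID cells, a human colorectal carcinoma line in which CRISPR knock-in placed an auxin-inducible mAID tag on TIMELESS, a protein of the replication fork. All 12 libraries carry the tag and were taken at 40 h, with 3 libraries per group. The groups were 5-Ph-IAA, the auxin analogue that triggers degradation of the tagged protein, together with the ATR kinase inhibitor ceralasertib (5-Ph-IAA/ATRi, also called the combination); 5-Ph-IAA alone; ceralasertib alone (ATRi); and DMSO. Each compound was used at 1 µM. The tag acts on the protein, and its depletion was not measured in these RNA libraries. The study's text calls the 3 libraries of a group biological replicates, and the labels do not say whether the line is 1 clone. Cells without the tag were not analysed here, so effects of 5-Ph-IAA other than loss of TIMELESS cannot be told apart from that loss.

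Homologous recombination repairs broken DNA and rescues collapsed replication forks by copying from the sister chromatid. BRCA1 and its partners open the break by resection, BRCA2 and PALB2 prepare the resected strand, motor proteins help it invade the sister, and nucleases or the BLM helicase separate the joined molecules. The Fanconi pathway acts on crosslinked DNA and stalled forks: a core complex attaches ubiquitin to the FANCD2-FANCI pair, which then brings in nucleases. Many of these genes are transcribed mainly in S and G2 phase, and ATR is the kinase that restrains stressed forks and delays entry into mitosis.

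Library totals were 27.7 to 34.7 M estimated counts. The share of counts on mitochondrial transcripts was 6.63% to 14.9%, and it was highest in DMSO replicate 2. That library also had the lowest summed level of the 34 genes in its group, 697 CPM (counts scaled to library size by TMM), against 1044 in DMSO replicate 1 and 1236 in DMSO replicate 3. Of the 34 genes, 29 were lowest among DMSO libraries in DMSO replicate 2. Of 10 colon epithelium markers, 6 were over 1 CPM in every library, among them EPCAM, CDH1 and KRT8, while CEACAM5, LGALS4, VIL1 and CDX1 were too low to test. The 10 markers summed to 9993 to 11437 CPM with 5-Ph-IAA/ATRi, 4730 to 6343 with 5-Ph-IAA, 5707 to 6508 with ATRi and 4294 to 6384 with DMSO, so the combination libraries lay above all others. Blood cell markers summed to 29.8 to 38.1 CPM with 5-Ph-IAA/ATRi, 7.01 to 17.1 with 5-Ph-IAA, 9.37 to 15.7 with ATRi and 8.003 to 9.93 with DMSO. In every library CD68 was the 1 of these 6 markers over 1 CPM, and PTPRC and CD3E had at most 5 counts each per library. Of 8 fibroblast and endothelial markers, 1 or 2 were over 1 CPM per library, and their sums were 44.2 to 70.1 CPM with 5-Ph-IAA/ATRi and 36.0 to 107 CPM with DMSO. The part of these marker lists in the results was not tested.

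In DMSO, the level per transcript length was highest for FANCL, the ubiquitin ligase of the core complex, at 36.8 CPM per kb of its longest transcript. UBE2T, the ubiquitin-conjugating enzyme that works with FANCL, followed at 29.9 CPM per kb, and RBBP8 at 22.6 CPM per kb. The lowest levels per length were those of BRCA2 at 1.21 and RAD51D at 1.39 CPM per kb. FAAP24 at 1.42 and RAD51B at 1.44 CPM per kb lay close to RAD51D. The longest transcript need not be the one expressed, so these ranks depend on the length used. The genes lie on many chromosomes, with 6 of the 34 on chromosome 17, the most on any.

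With 5-Ph-IAA/ATRi, 21 of the 34 genes fell relative to DMSO and none rose. The falls reached log2 -2.59 for FANCD2 and -2.52 for BRIP1, and the median over the 34 genes was -1.32, against -0.02 over all genes tested. All 3 members of the FANCD2-FANCI-UBE2T group fell, as did all 3 genes of strand invasion and motor proteins, 4 of 6 genes of the BRCA group, 3 of 5 genes of the XRCC2 and XRCC3 complexes, 5 of 10 core complex genes, 2 of 5 nuclease genes and 1 of 2 helicases. PALB2, MUS81, FAN1, FAAP100 and HELQ, which act beside genes that fell, had log2 changes of -0.20 to 0.21 that did not pass the test. Calls rest on edgeR's quasi-likelihood test with Benjamini-Hochberg adjustment over all 18049 genes and a threshold of 0.05. By that rule 6.89% of all genes tested were lower, 6.24% were higher and 13.1% changed in either direction. Of the 34 genes, 24 had an unadjusted p under the same threshold, against 26.8% of all genes tested, and 32 had a negative change, against 51.9%. All 3 5-Ph-IAA/ATRi libraries lay below all 3 DMSO libraries for 25 of the 34 genes, against 15.9% of all genes tested. In bulk RNA, fewer cells that express a gene and less of its RNA per cell cannot be told apart.

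**Figure D1:**
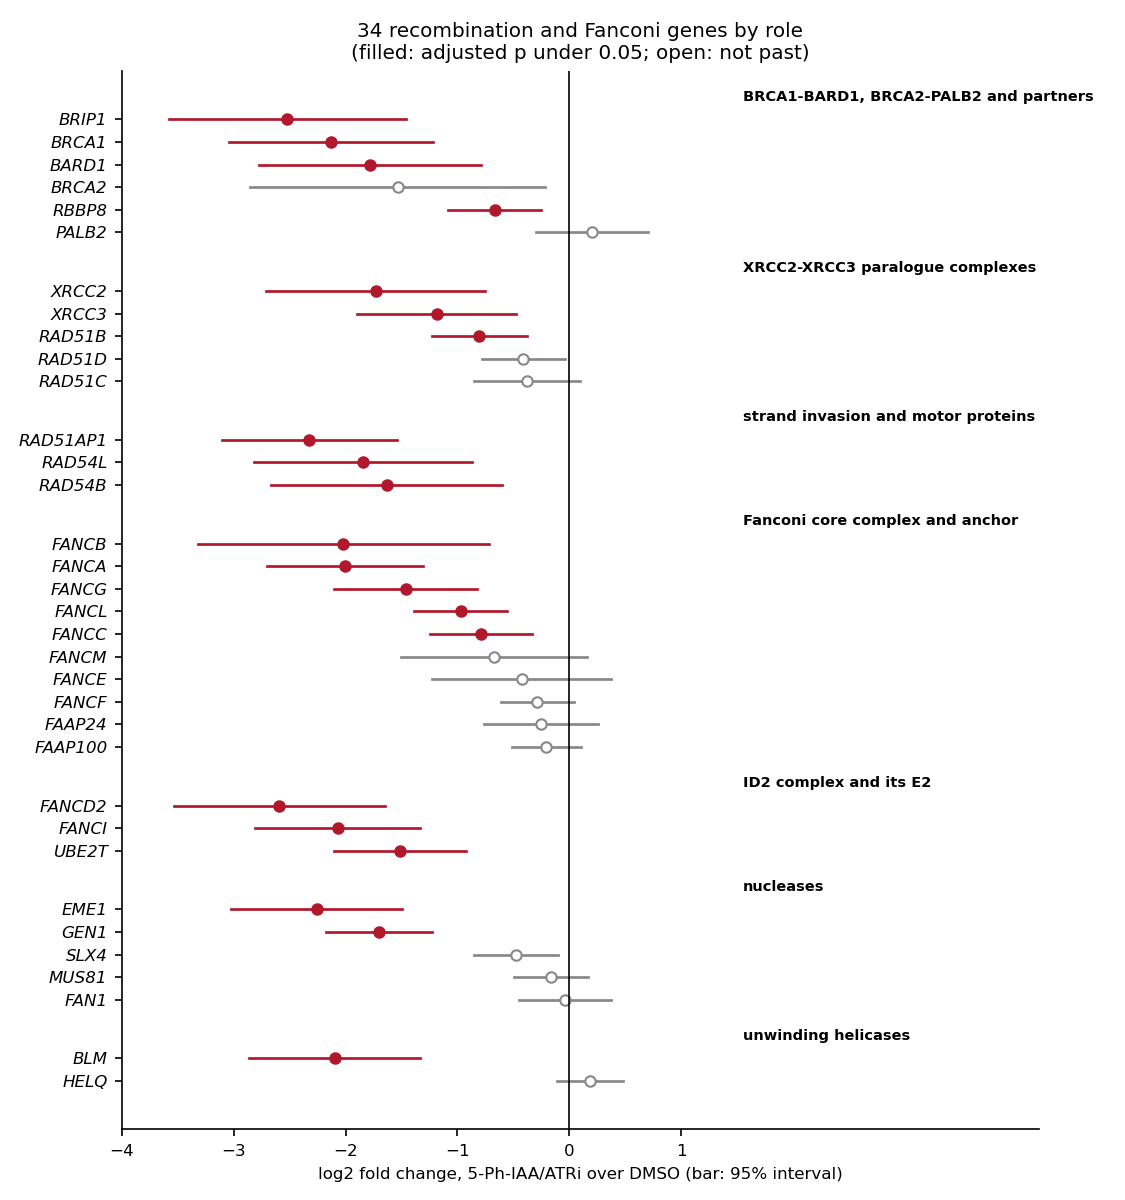
Log2 fold change of each of the 34 genes with 5-Ph-IAA/ATRi over DMSO, grouped by role, with bars for the 95% interval of the edgeR fit; filled points passed an adjusted p of 0.05 and open points did not. The 21 filled points lie left of 0, and PALB2 and HELQ are the 2 genes right of 0.

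The number of falls changed when libraries were left out, which also makes the sample smaller. Without DMSO replicate 1 or DMSO replicate 3, 12 of the 34 genes passed, and without any 1 of the 3 5-Ph-IAA/ATRi libraries 12, 12 or 13 passed. Without DMSO replicate 2 it was 22, and 17 without the library of highest mitochondrial share in each group. The share of all genes called in each of these fits is not given here, so a loss particular to the 34 genes is not shown. The 12 genes that passed in every fit run were FANCD2, BRIP1, RAD51AP1, EME1, BRCA1, BLM, FANCI, FANCA, GEN1, UBE2T, FANCG and FANCL. They include all 3 genes of the FANCD2-FANCI-UBE2T group. The other 9 were BARD1, RBBP8, RAD51B, XRCC2, XRCC3, RAD54L, RAD54B, FANCB and FANCC.

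**Figure D2:**
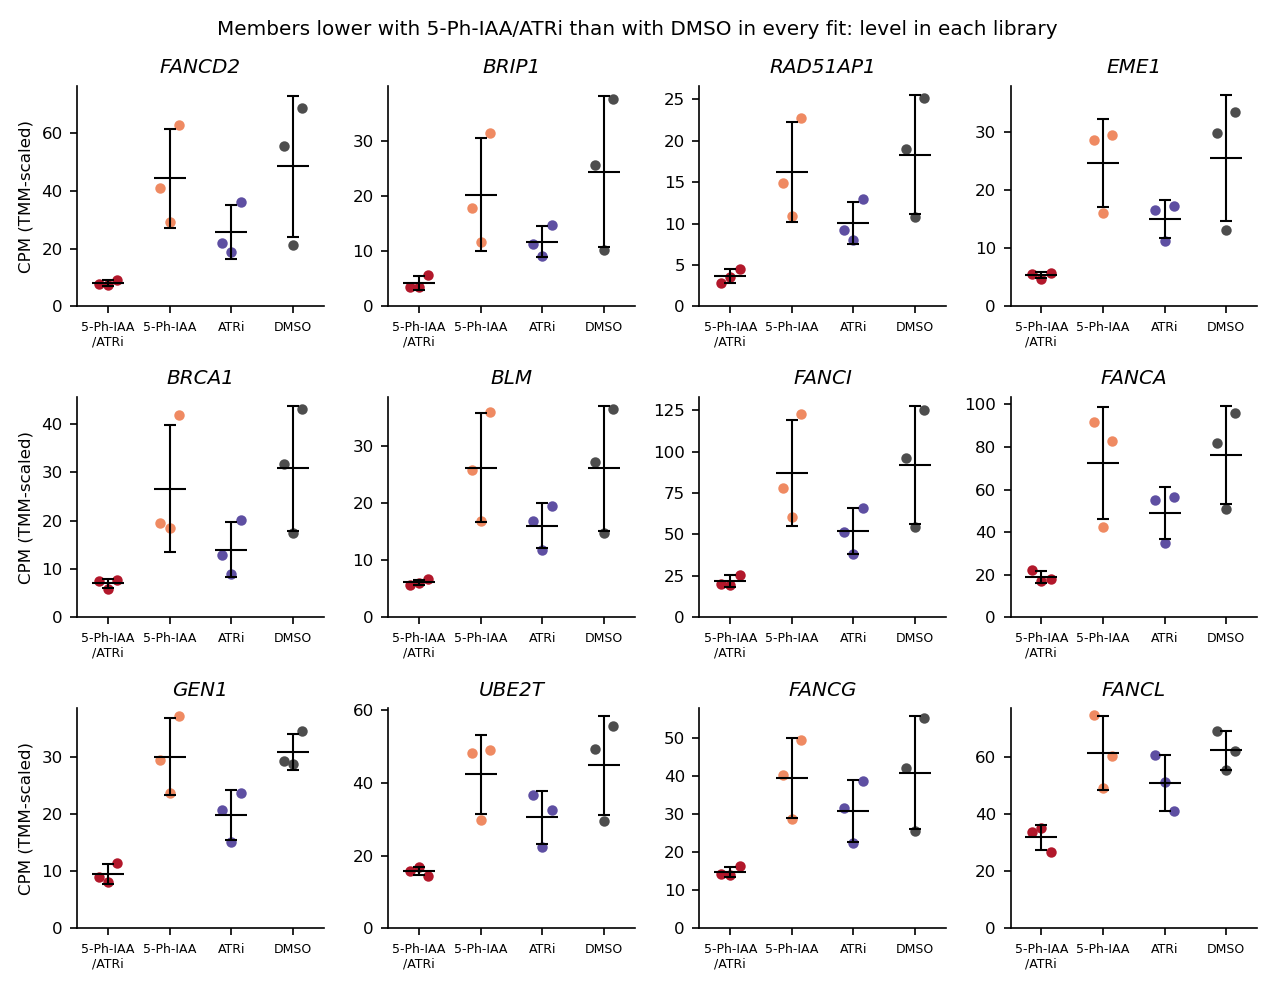
Level of the 12 genes that passed in every fit, in TMM-scaled CPM, with 1 point per library and the mean with SD per group of 3. In each panel the 5-Ph-IAA/ATRi points lie below the ATRi, 5-Ph-IAA and DMSO points, and DMSO replicate 2 is the lowest DMSO library.

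The promoters of 8 genes are shown because these genes moved apart under the same treatment: 5 belong to genes that fell and carry an E2F word, and 3 to genes that did not pass the test. Sequences are RefSeq promoter windows on GRCh38.p14, with 250 bases before and 50 from the start site, written 5′ to 3′ along the gene's strand. Capitals mark matches, on either strand, to an E2F word (TTTCCCGC, TTTCGCGC, TTTGCCGC or TTTGGCGC) or to the cell cycle homology region word CHR (TTTGAA or TTCGAA). FANCD2 lies at chr3:10026187-10026486 (plus strand), FANCA at chr16:89816598-89816897 (minus strand), GEN1 at chr2:17753619-17753918 (plus strand), XRCC2 at chr7:152676092-152676391 (minus strand) and FANCC at chr9:95317660-95317959 (minus strand). PALB2 lies at chr16:23641261-23641560 (minus strand), FAN1 at chr15:30903602-30903901 (plus strand) and HELQ at chr4:83455834-83456133 (minus strand).
FANCD2: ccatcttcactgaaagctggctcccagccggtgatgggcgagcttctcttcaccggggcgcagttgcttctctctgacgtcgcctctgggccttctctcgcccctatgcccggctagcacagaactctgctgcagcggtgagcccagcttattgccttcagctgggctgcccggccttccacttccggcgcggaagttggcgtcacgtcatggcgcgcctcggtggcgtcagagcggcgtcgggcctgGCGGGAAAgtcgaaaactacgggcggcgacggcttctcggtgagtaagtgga
FANCA: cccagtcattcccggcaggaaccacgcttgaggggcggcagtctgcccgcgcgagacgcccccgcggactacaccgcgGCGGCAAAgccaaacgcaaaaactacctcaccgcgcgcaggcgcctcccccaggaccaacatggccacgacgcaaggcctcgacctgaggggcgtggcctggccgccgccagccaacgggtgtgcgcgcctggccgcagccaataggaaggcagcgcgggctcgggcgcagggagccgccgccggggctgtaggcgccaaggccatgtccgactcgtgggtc
GEN1: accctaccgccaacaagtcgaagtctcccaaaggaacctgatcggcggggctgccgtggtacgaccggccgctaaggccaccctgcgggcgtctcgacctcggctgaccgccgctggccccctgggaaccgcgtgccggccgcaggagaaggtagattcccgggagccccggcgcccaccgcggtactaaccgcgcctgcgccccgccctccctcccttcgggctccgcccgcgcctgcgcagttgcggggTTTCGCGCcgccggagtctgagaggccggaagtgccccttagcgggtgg
XRCC2: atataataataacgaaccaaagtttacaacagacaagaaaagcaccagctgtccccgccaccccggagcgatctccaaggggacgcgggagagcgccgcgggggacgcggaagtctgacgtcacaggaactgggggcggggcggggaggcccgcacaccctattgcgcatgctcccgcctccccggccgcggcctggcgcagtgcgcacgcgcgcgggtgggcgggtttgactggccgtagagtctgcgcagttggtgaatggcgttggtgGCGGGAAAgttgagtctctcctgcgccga
FANCC: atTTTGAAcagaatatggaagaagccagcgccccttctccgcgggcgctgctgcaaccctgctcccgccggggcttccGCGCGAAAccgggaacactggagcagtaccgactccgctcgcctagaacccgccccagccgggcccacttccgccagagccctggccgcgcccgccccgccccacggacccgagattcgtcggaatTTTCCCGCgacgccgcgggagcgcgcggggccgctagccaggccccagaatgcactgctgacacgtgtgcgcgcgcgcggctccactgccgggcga
PALB2: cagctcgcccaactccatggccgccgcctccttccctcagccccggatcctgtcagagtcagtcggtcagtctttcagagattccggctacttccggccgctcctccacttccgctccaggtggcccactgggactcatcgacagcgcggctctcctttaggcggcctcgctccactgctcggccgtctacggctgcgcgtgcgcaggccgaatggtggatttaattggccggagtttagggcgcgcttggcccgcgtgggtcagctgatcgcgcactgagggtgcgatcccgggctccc
FAN1: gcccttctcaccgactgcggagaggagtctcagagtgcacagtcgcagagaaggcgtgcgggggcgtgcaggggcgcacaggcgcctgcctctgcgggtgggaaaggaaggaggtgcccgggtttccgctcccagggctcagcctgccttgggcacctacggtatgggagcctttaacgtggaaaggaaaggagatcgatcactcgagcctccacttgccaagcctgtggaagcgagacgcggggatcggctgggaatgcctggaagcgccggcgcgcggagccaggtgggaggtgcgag
HELQ: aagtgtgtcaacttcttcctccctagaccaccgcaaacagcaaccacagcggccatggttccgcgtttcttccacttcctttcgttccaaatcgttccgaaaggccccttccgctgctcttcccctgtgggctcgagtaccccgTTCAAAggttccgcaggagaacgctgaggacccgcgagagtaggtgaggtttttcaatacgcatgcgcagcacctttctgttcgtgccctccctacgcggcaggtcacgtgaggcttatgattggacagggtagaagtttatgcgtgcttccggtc

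The E2F word stood in 5 of the 19 genes that fell and have an entry, which is 26.3%, and in 0 of the 13 that did not pass. Of all 12037 genes tested that have an entry, 6.41% held it. In FANCD2 it overlaps the start site, and in GEN1 it begins just after it. The CHR word stood in 4 of the 19 genes that fell (UBE2T, FANCC, BRIP1 and, in a second window not shown, GEN1), in 2 of the 13 that did not pass (HELQ and FAAP24), and in 15.4% of genes tested that have an entry. The word CCAAT, searched on both strands, stood in 9 of the 19, in 6 of the 13 and in 42.6% of the same genes tested. A gene with several start sites counts as holding a word where any window does, as 10 of the 32 genes have several. FANCI and RAD54B have no entry in this table. These matches describe letters in a window, and binding was not measured.

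BRCA1 and BARD1 form a ubiquitin ligase that favours resection. BRCA1 (chr17:43044295-43170327 in a GENCODE annotation of GRCh38) had 7.44, 5.92 and 7.704 CPM in the 5-Ph-IAA/ATRi libraries, against 31.7, 17.5 and 43.1 CPM in DMSO libraries. It had 19.5, 18.5 and 41.8 CPM in 5-Ph-IAA libraries and 12.9, 8.92 and 20.1 CPM in ATRi libraries. All 3 5-Ph-IAA/ATRi libraries were below the other 9, and ATRi libraries overlapped DMSO. BRCA1 fell by 2.13 ± 0.42 on the log2 scale (SE; edgeR adjusted p = 0.00662) relative to DMSO, to 22.8% of the DMSO mean. BARD1 had 2.899, 4.18 and 4.79 CPM with 5-Ph-IAA/ATRi, against 13.5, 5.68 and 21.7 CPM with DMSO, and it fell by 1.78 ± 0.45 on the log2 scale (edgeR adjusted p = 0.0246). Its levels were 10.7, 7.33 and 18.3 CPM with 5-Ph-IAA and 7.100, 8.83 and 10.6 CPM with ATRi, so the combination lay lowest without overlap. The ratio of BARD1 to BRCA1 overlapped between 5-Ph-IAA/ATRi and DMSO libraries, with a log2 difference of 0.43 (exact permutation test, two-sided p = 0.3).

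BRCA2 prepares the resected strand for invasion, and PALB2 bridges it to BRCA1. BRCA2 (chr13:32315077-32400268) had 4.33, 4.18 and 6.57 CPM with 5-Ph-IAA/ATRi, 9.37, 7.06 and 22.4 CPM with 5-Ph-IAA, 5.79, 9.19 and 14.7 CPM with ATRi and 15.4, 4.12 and 24.04 CPM with DMSO. The lowest single value was that of DMSO replicate 2, so the groups overlapped. Its log2 change with 5-Ph-IAA/ATRi over DMSO was -1.53 ± 0.60 (edgeR adjusted p = 0.124), and it did not pass. It passed without DMSO replicate 2, with no count filter, with DESeq2 and with the replicate number as a block. PALB2 had 18.5, 20.2 and 24.7 CPM with 5-Ph-IAA/ATRi, against 19.4, 14.03 and 21.5 CPM with DMSO. These groups overlapped, and the log2 change was 0.21 ± 0.23 (edgeR adjusted p = 0.631). Within each library, the log2 ratio of BRCA2 to PALB2 was -2.09 ± 0.18 with 5-Ph-IAA/ATRi and -0.64 ± 1.00 with DMSO (SD, n = 3 each). The ratios did not overlap (exact permutation test, two-sided p = 0.1, the smallest that 3 against 3 allows).

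BRIP1 is a helicase that binds BRCA1, and RBBP8 (CtIP) starts resection with the MRE11 nuclease. BRIP1 (chr17:61679139-61863528) had 3.54, 3.49 and 5.72 CPM with 5-Ph-IAA/ATRi, against 25.5, 10.1 and 37.5 CPM with DMSO, and fell by 2.52 ± 0.48 on the log2 scale (edgeR adjusted p = 0.00604). It had 17.7, 11.6 and 31.4 CPM with 5-Ph-IAA and 11.3, 9.04 and 14.7 CPM with ATRi. The combination libraries lay below all others, and DMSO replicate 2 lay within the ATRi range. RBBP8 had 41.3, 45.7 and 54.04 CPM with 5-Ph-IAA/ATRi and 76.1, 61.6 and 85.7 CPM with DMSO. With ATRi it had 43.1, 49.6 and 59.4 CPM and with 5-Ph-IAA 49.2, 62.2 and 75.1 CPM. The smaller fall of RBBP8, log2 -0.66 ± 0.19 (edgeR adjusted p = 0.0401), left 5-Ph-IAA/ATRi and ATRi libraries overlapping.

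Related proteins that assist strand invasion form separate complexes, with RAD51B, RAD51C, RAD51D and XRCC2 in one and RAD51C with XRCC3 in another. XRCC2 had 3.76, 3.38 and 5.18 CPM with 5-Ph-IAA/ATRi, 10.4, 6.02 and 16.8 CPM with 5-Ph-IAA, 7.37, 6.35 and 10.6 CPM with ATRi and 16.4, 5.96 and 18.5 CPM with DMSO, and fell by 1.73 ± 0.45 on the log2 scale relative to DMSO (edgeR adjusted p = 0.026). XRCC3 had 8.09, 6.61 and 9.05 CPM with 5-Ph-IAA/ATRi, 22.7, 11.9 and 22.1 CPM with 5-Ph-IAA, 13.1, 8.86 and 14.4 CPM with ATRi and 17.5, 11.1 and 25.4 CPM with DMSO, and fell by 1.19 ± 0.33 on the log2 scale relative to DMSO (edgeR adjusted p = 0.034). For both genes the combination libraries lay below all DMSO libraries. Exons of KLC1 on the opposite strand cover 76.7% of XRCC3 exon bases, and since the strand setting of the counting is not given in the sources used here, its level is uncertain. KLC1 itself had a log2 change of 0.20. RAD51B had 2.08, 1.96 and 2.38 CPM with 5-Ph-IAA/ATRi, 2.796, 3.67 and 3.51 CPM with 5-Ph-IAA, 2.36, 2.75 and 3.13 CPM with ATRi and 3.93, 3.46 and 3.83 CPM with DMSO, and fell by 0.80 ± 0.19 on the log2 scale relative to DMSO (edgeR adjusted p = 0.0186). Its combination libraries lay below all DMSO libraries. RAD51C had a log2 change of -0.38 ± 0.22 and RAD51D of -0.41 ± 0.17, and neither passed (edgeR adjusted p = 0.301 and 0.143). The log2 ratio of XRCC2 to RAD51D was -1.37 ± 0.19 with 5-Ph-IAA/ATRi and -0.18 ± 0.73 with DMSO (SD, n = 3 each), and that of XRCC3 to RAD51C was -2.02 ± 0.30 and -1.24 ± 0.23 in the same groups. Neither pair overlapped between the groups (exact permutation test, two-sided p = 0.1 each, the smallest possible, and 0.16 after Benjamini-Hochberg adjustment).

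RAD51AP1 helps DNA strands to pair, and RAD54L and RAD54B are motor proteins that act in strand invasion. RAD51AP1 (chr12:4538890-4560047) had 2.86, 3.597 and 4.51 CPM with 5-Ph-IAA/ATRi, against 18.96, 10.8 and 25.1 CPM with DMSO, and fell by 2.32 ± 0.36 on the log2 scale (edgeR adjusted p = 0.00181). It had 14.9, 10.96 and 22.8 CPM with 5-Ph-IAA and 9.19, 8.03 and 12.9 CPM with ATRi. Its combination libraries were all below 5 CPM and the other 9 all above 8. RAD54L had 5.98, 4.72 and 5.57 CPM with 5-Ph-IAA/ATRi, 22.6, 11.3 and 25.1 CPM with 5-Ph-IAA, 12.1, 7.45 and 15.3 CPM with ATRi and 19.5, 8.43 and 30.6 CPM with DMSO, and fell by 1.85 ± 0.44 on the log2 scale relative to DMSO (edgeR adjusted p = 0.0189). RAD54B had 5.33, 4.65 and 6.71 CPM with 5-Ph-IAA/ATRi, 13.8, 8.49 and 24.01 CPM with 5-Ph-IAA, 9.84, 8.28 and 14.6 CPM with ATRi and 18.1, 6.98 and 26.6 CPM with DMSO, and fell by 1.63 ± 0.47 on the log2 scale relative to DMSO (edgeR adjusted p = 0.0418). For both motor proteins DMSO replicate 2 was the lowest DMSO library, and the combination libraries lay below it. RAD54B shares 59.1% of its exon bases with FSBP on the same strand, which had a log2 change of -1.34, so reads of the pair may be split between them. RAD54L shares 25.1% of its exon bases with LRRC41 on the opposite strand.

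In the Fanconi core complex, FANCA and FANCG form one module, FANCB, FANCL and FAAP100 the module that holds the ligase, and FANCC, FANCE and FANCF another, while FANCM and FAAP24 anchor the complex to DNA. FANCA (chr16:89737549-89816647) had 22.1, 16.9 and 17.9 CPM with 5-Ph-IAA/ATRi, against 81.7, 50.8 and 96.1 CPM with DMSO, and fell by 2.01 ± 0.32 on the log2 scale (edgeR adjusted p = 0.0022). It had 91.8, 42.5 and 82.9 CPM with 5-Ph-IAA and 55.1, 34.8 and 56.7 CPM with ATRi. All combination libraries lay below the other 9. FANCA shares 23.6% of its exon bases with ZNF276 on the opposite strand, which had a log2 change of 0.07. FANCG had 14.3, 13.9 and 16.4 CPM with 5-Ph-IAA/ATRi, 40.2, 28.8 and 49.6 CPM with 5-Ph-IAA, 31.7, 22.4 and 38.7 CPM with ATRi and 42.1, 25.5 and 55.2 CPM with DMSO, and fell by 1.46 ± 0.29 on the log2 scale relative to DMSO (edgeR adjusted p = 0.00758). Its combination libraries likewise lay below the other 9.

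FANCL (chr2:58159243-58241380) had 33.9, 35.1 and 26.8 CPM with 5-Ph-IAA/ATRi, 74.9, 49.3 and 60.4 CPM with 5-Ph-IAA, 60.8, 51.3 and 41.2 CPM with ATRi and 69.4, 55.6 and 62.3 CPM with DMSO, and fell by 0.97 ± 0.19 on the log2 scale relative to DMSO (edgeR adjusted p = 0.00672). FANCL is the gene with the highest level per length in DMSO, and its combination libraries lay below the other 9. FANCB, carried on the X chromosome, had 0.872 to 1.38 CPM with 5-Ph-IAA/ATRi and 1.66 to 7.597 CPM with DMSO, and fell by 2.02 ± 0.59 on the log2 scale (edgeR adjusted p = 0.0444). FAAP100 had a log2 change of -0.20 ± 0.14, which did not pass. FANCC had 15.5, 13.7 and 13.03 CPM with 5-Ph-IAA/ATRi, 26.2, 18.8 and 28.4 CPM with 5-Ph-IAA, 21.6, 18.1 and 22.7 CPM with ATRi and 26.3, 17.3 and 29.4 CPM with DMSO, and fell by 0.79 ± 0.21 on the log2 scale relative to DMSO (edgeR adjusted p = 0.0297). Its module partners did not pass, FANCE at log2 -0.43 ± 0.36 and FANCF at log2 -0.29 ± 0.15. Nor did the anchors FANCM, at log2 -0.67 ± 0.38, and FAAP24, at log2 -0.26 ± 0.23. The edgeR adjusted p values of these 5 genes were 0.248 to 0.545. The ratios of FANCB to FAAP100 and of FANCM to FAAP24 overlapped between 5-Ph-IAA/ATRi and DMSO libraries, with log2 differences of -1.59 and -0.28 (exact permutation tests, two-sided p = 0.2 and 0.7).

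FANCD2 and FANCI are the pair to which the core complex attaches ubiquitin. FANCD2 (chr3:10026437-10101932) had 7.801, 7.27 and 9.09 CPM with 5-Ph-IAA/ATRi, against 55.7, 21.3 and 68.9 CPM with DMSO. It had 41.2, 29.1 and 62.9 CPM with 5-Ph-IAA and 22.02, 18.9 and 36.3 CPM with ATRi. Every combination library was below 10 CPM and every other library above 18. Its fall relative to DMSO, log2 -2.59 ± 0.43 (edgeR adjusted p = 0.00276), left 16.6% of the DMSO mean. FANCI (chr15:89243979-89317259) had 20.2, 19.5 and 25.8 CPM with 5-Ph-IAA/ATRi, 77.9, 60.8 and 123 CPM with 5-Ph-IAA, 51.2, 38.4 and 66.1 CPM with ATRi and 95.9, 54.4 and 125 CPM with DMSO, and fell by 2.07 ± 0.34 on the log2 scale relative to DMSO (edgeR adjusted p = 0.00252). Again the combination libraries lay below the other 9. The log2 ratio of FANCI to FANCD2 was 1.44 ± 0.07 with 5-Ph-IAA/ATRi and 1.00 ± 0.31 with DMSO (SD, n = 3 each). These ratios did not overlap (exact permutation test, two-sided p = 0.1, the smallest possible, and 0.16 after Benjamini-Hochberg adjustment). UBE2T (chr1:202331657-202341936) had 15.9, 16.7 and 14.5 CPM with 5-Ph-IAA/ATRi, 48.4, 29.9 and 49.04 CPM with 5-Ph-IAA, 36.6, 22.3 and 32.7 CPM with ATRi and 49.4, 29.5 and 55.6 CPM with DMSO, and fell by 1.51 ± 0.27 on the log2 scale relative to DMSO (edgeR adjusted p = 0.00412). Its combination libraries lay below the other 9 as well.

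Among the nucleases, EME1 is a partner with which MUS81 cuts branched DNA, and GEN1 resolves Holliday junctions alone. SLX4 is a scaffold for several nucleases, and FAN1 is drawn in by ubiquitinated FANCD2. EME1 (chr17:50373229-50381483) had 5.47, 4.72 and 5.75 CPM with 5-Ph-IAA/ATRi, against 29.8, 13.2 and 33.4 CPM with DMSO, and fell by 2.26 ± 0.35 on the log2 scale (edgeR adjusted p = 0.00182). It had 28.6, 15.9 and 29.5 CPM with 5-Ph-IAA and 16.5, 11.2 and 17.2 CPM with ATRi. The combination libraries were all below 6 CPM and the other 9 above 11. MUS81 had 34.7, 32.2 and 29.5 CPM with 5-Ph-IAA/ATRi and 34.9, 41.8 and 31.01 CPM with DMSO, which overlapped, and a log2 change of -0.16 ± 0.15 (edgeR adjusted p = 0.558). The log2 ratio of EME1 to MUS81 was -2.60 ± 0.21 with 5-Ph-IAA/ATRi and -0.60 ± 0.94 with DMSO (SD, n = 3 each), the widest difference of the 8 pairs of partners compared. The ratios did not overlap (exact permutation test, two-sided p = 0.1, 0.16 after Benjamini-Hochberg adjustment over the 8 pairs). In 5 of the 8 pairs the groups did not overlap, and a p of 0.1 is the smallest this design allows. Ratios of other gene pairs were not computed, so how common such a lack of overlap is among all genes is not known.

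GEN1 (chr2:17753278-17788946) had 8.95, 8.07 and 11.4 CPM with 5-Ph-IAA/ATRi, 29.4, 23.6 and 37.1 CPM with 5-Ph-IAA, 20.8, 15.2 and 23.7 CPM with ATRi and 29.3, 28.7 and 34.5 CPM with DMSO. Its combination libraries were the lowest, its ATRi libraries came next and lay below all DMSO libraries, and its 5-Ph-IAA libraries overlapped both ATRi and DMSO. GEN1 had the smallest p of the 34 genes, with a fall of log2 -1.70 ± 0.22 relative to DMSO (edgeR adjusted p = 0.000621). SLX4 had a log2 change of -0.47 ± 0.17 and FAN1 of -0.04 ± 0.19, and neither passed (edgeR adjusted p = 0.0977 and 0.928). BLM, the helicase that dissolves double Holliday junctions, had 5.73, 5.92 and 6.64 CPM with 5-Ph-IAA/ATRi, 25.8, 16.8 and 35.9 CPM with 5-Ph-IAA, 16.8, 11.9 and 19.5 CPM with ATRi and 27.2, 14.7 and 36.4 CPM with DMSO. Its combination libraries were below 7 CPM and the others above 11. BLM (chr15:90717346-90816166) fell by 2.10 ± 0.35 on the log2 scale relative to DMSO (edgeR adjusted p = 0.00281). HELQ, a helicase of crosslink repair, had 13.2, 16.4 and 14.4 CPM with 5-Ph-IAA/ATRi and 13.9, 12.1 and 12.6 CPM with DMSO, and its log2 change of 0.19 ± 0.13 did not pass (edgeR adjusted p = 0.416). Genes on the opposite strand also share 24.3% of the exon bases of FAN1 (MTMR10), 18.7% of FANCL (VRK2) and 16.4% of EME1 (LRRC59). They share 13.9% of those of MUS81 (CFL1) and 5.90% of those of FANCI (POLG). The levels of these genes are thus uncertain too, though over a smaller share of exon bases than for XRCC3. CFL1, at a mean of 803 CPM over the 12 libraries, lay far above MUS81.

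**Figure D3:**
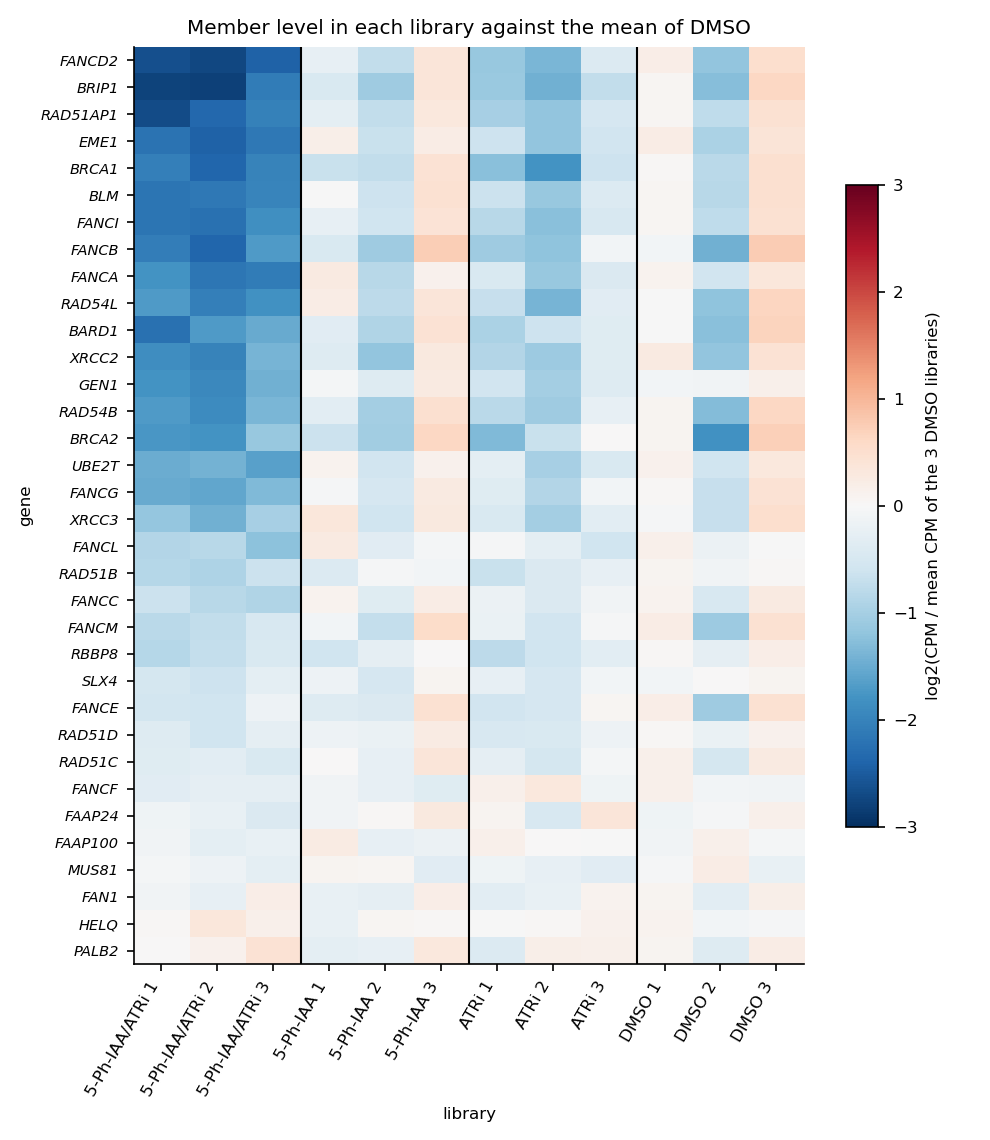
Level of each of the 34 genes (lines, ordered by change) in each of the 12 libraries, as log2 of CPM over the mean of the 3 DMSO libraries; blue is lower and red higher. The 3 5-Ph-IAA/ATRi columns are blue for most genes, the ATRi columns paler, and the DMSO replicate 2 column is bluer than the other DMSO columns.

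5-Ph-IAA alone moved none of the 34 genes past the threshold relative to DMSO, and 0 had an unadjusted p under it. The log2 changes were -0.30 for XRCC2 to 0.08 for FAAP24, with a median of -0.07, and 27 were negative, against 53.1% of all genes tested. Of all genes tested, 0.00554% changed (edgeR adjusted p), and DESeq2 also called 0 of the 34. The 95% intervals show what such a change could still be: -1.07 to 0.65 for BRCA1, -1.01 to 0.75 for FANCD2 and -0.49 to 0.42 for GEN1. FANCF was the 1 gene whose 5-Ph-IAA libraries all lay below the DMSO libraries, against 1.38% of all genes tested.

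ATRi alone also moved none of the 34 past the threshold relative to DMSO, and 0.0665% of all genes tested changed, with DESeq2 calling 0 of the 34. The count was not 0 in every fit, since the replicate number as a block gave 3 (BRCA1, FANCI and GEN1) and the mitochondrial share as a term gave 1 (RBBP8). The share of all genes given above is that of the main fit, so these counts cannot be set against it. Of the 34 changes, 30 were negative, against 53.0% of all genes tested, and the median was -0.55. An unadjusted p under the threshold was found for 9 of the 34, against 4.86% of all genes tested. Those 9 were BRCA1 at log2 -1.14 ± 0.40, BRIP1 at -1.06 ± 0.45, FANCD2 at -0.92 ± 0.40, RAD51AP1 at -0.87 ± 0.34, FANCI at -0.82 ± 0.33, EME1 at -0.77 ± 0.33, GEN1 at -0.63 ± 0.21, RBBP8 at -0.56 ± 0.19 and RAD51B at -0.44 ± 0.19. Their edgeR adjusted p values were 0.741 to 0.997. For RBBP8, GEN1 and RAD51B all ATRi libraries lay below all DMSO libraries, which is 3 of 34 genes, against 4.07% of all genes tested.

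Relative to 5-Ph-IAA alone, 5-Ph-IAA/ATRi lowered 16 of the 34 genes and raised none, with a median log2 change of -1.31. By edgeR, 5.04% of all genes tested were lower, 4.38% were higher and 9.41% changed in either direction. The 8 that passed in every fit run were FANCD2 at log2 -2.46 ± 0.43, EME1 at -2.21 ± 0.35, RAD51AP1 at -2.15 ± 0.36, BLM at -2.10 ± 0.35, FANCI at -1.996 ± 0.34, FANCA at -1.93 ± 0.32, GEN1 at -1.66 ± 0.22 and UBE2T at -1.43 ± 0.27. Without any 1 of the 5-Ph-IAA/ATRi libraries 9, 9 or 10 genes passed, and 8 passed without the library of highest mitochondrial share in each group. The shares of all genes given above are those of the main fit, so these counts cannot be set against them. This comparison and the one with DMSO share the 5-Ph-IAA/ATRi libraries, so they are not independent.

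Relative to ATRi alone, 5-Ph-IAA/ATRi lowered 5 of the 34 genes and raised none, while 1.88% of all genes tested were lower and 3.51% changed in either direction. They were EME1 at log2 -1.49 ± 0.34 (edgeR adjusted p = 0.0375), RAD51AP1 at -1.46 ± 0.35 (0.0455), BLM at -1.40 ± 0.34 (0.0499), FANCA at -1.37 ± 0.31 (0.0381) and GEN1 at -1.07 ± 0.21 (0.0236). The median over the 34 genes was -0.82. A negative change was found for 30, against 50.6% of all genes tested, and an unadjusted p under the threshold for 18, against 16.5%. FANCD2 had a log2 change of -1.68 ± 0.42 and missed the threshold (edgeR adjusted p = 0.0522). All 5-Ph-IAA/ATRi libraries lay below all ATRi libraries for 20 of the 34 genes, against 14.0% of all genes tested. The count depended on the libraries and on the fit. Leaving out ATRi replicate 2 kept 1, GEN1, and leaving out any other library of either group kept 0. Without the library of highest mitochondrial share in each group it was also 0. It was 3 with scaling by total counts and 1 with limma-voom, but 10 with no count filter, 11 with DESeq2, 12 with only the groups compared, 14 with the mitochondrial share as a term and 19 with the replicate number as a block. The shares of all genes given above are those of the main fit, so these counts cannot be set against them.

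For 27 of the 34 genes the group means stood in the same order, with 5-Ph-IAA/ATRi below ATRi and ATRi below both 5-Ph-IAA and DMSO, which is 79.4%, against 24.0% of all genes tested. The interaction asks whether the log2 change with the combination differs from the sum of the changes with 5-Ph-IAA and with ATRi. By edgeR, 0 of the 34 genes passed, as did 0.0776% of all genes tested, and DESeq2 called 0 of the 34. With the replicate number as a block, 7 passed (RAD51AP1, FANCA, FANCG, FANCI, EME1, GEN1 and BLM), and the share of all genes in that fit is not given here. The median interaction over the 34 genes was -0.68. It was negative for 29, against 49.7% of all genes tested, and 10 had an unadjusted p under the threshold, against 7.30%. The most negative were FANCD2 at -1.55 ± 0.57, EME1 at -1.45 ± 0.47, BLM at -1.40 ± 0.47 and FANCA at -1.29 ± 0.44 on the log2 scale. GEN1 had -1.03 ± 0.30 and the smallest adjusted p of the 34 (0.353, edgeR). Whether the changes departed from additivity therefore depended on the fit.

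Within groups, libraries also differed. The library numbered 3 had the lowest mitochondrial share in each of the 4 groups and the highest summed level of the 34 genes. The sums were 504 CPM with 5-Ph-IAA/ATRi, 1159 with 5-Ph-IAA, 813 with ATRi and 1236 with DMSO. Across the 3 libraries of a group, the median ratio of the highest to the lowest level of a gene was 1.28 with 5-Ph-IAA/ATRi, 1.78 with 5-Ph-IAA, 1.56 with ATRi and 2.03 with DMSO. The combination libraries lay closest together, 456 to 504 CPM in sum, and below each of the other 9, which began at 606 CPM. With the mitochondrial share of each library as a term in the fit, 24 of the 34 genes changed with 5-Ph-IAA/ATRi relative to DMSO, 23 lower and PALB2 higher. The share of all genes that changed in that fit is not given here.

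**Figure D4:**
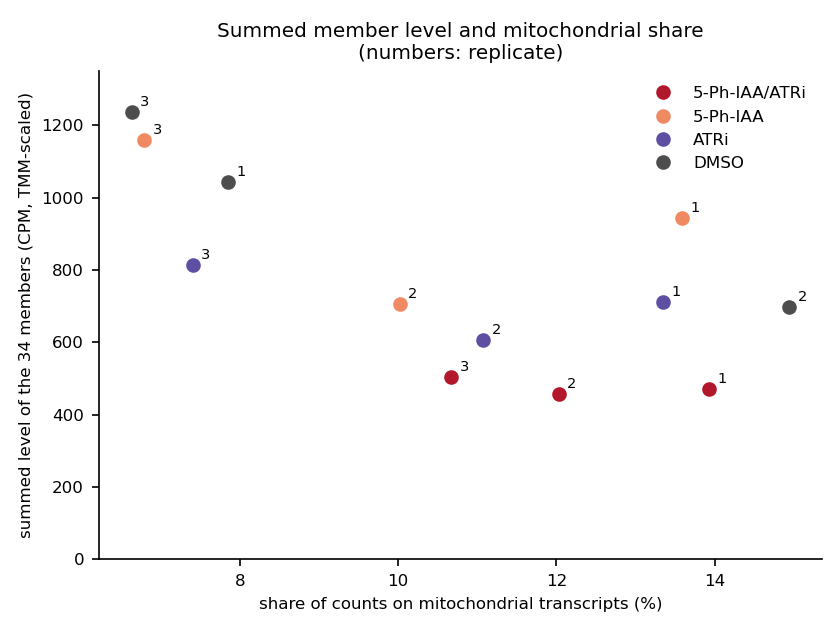
Summed level of the 34 genes (TMM-scaled CPM) against the share of counts on mitochondrial transcripts (%), with 1 point per library, coloured by group and numbered by replicate. The 5-Ph-IAA/ATRi libraries lie at 456 to 504 CPM, below ATRi libraries at 606 to 813 CPM, and DMSO replicate 2 lies at the highest mitochondrial share, 14.9%.

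Other genes of the pathway were compared in the same fit. Of 49 further recombination and Fanconi genes, 48 were tested, and 14 fell with 5-Ph-IAA/ATRi relative to DMSO and 0 rose (edgeR), with a median log2 change of -0.35. The 4 with the smallest p were ZGRF1, a helicase of crosslink repair, at -2.49, NUCKS1, a RAD51AP1 relative, at -1.12, SFR1, the partner of SWI5, at -0.96, and FIGNL1, an ATPase of recombination, at -1.26. RAD52 had a log2 change of 0.02 that did not pass. Of 42 genes of replication origins and the replisome, 18 fell and 0 rose, with a median of -1.29. Of 28 genes of G2 and mitosis, 27 fell, and their median was -2.26. Of 18 end joining genes 0 fell and 0 rose by edgeR, with a median of -0.19 and 5 (27.8%) at an unadjusted p under the threshold, against 26.8% of all genes tested. Of 22 nucleotide excision repair genes, XPC at log2 1.498 and DDB2 at 1.22 rose and 0 fell, with a median of 0.10. With ATRi alone the medians were -0.55 for the 34 genes, -0.45 for replisome genes and -0.63 for G2/M genes.

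**Figure D5:**
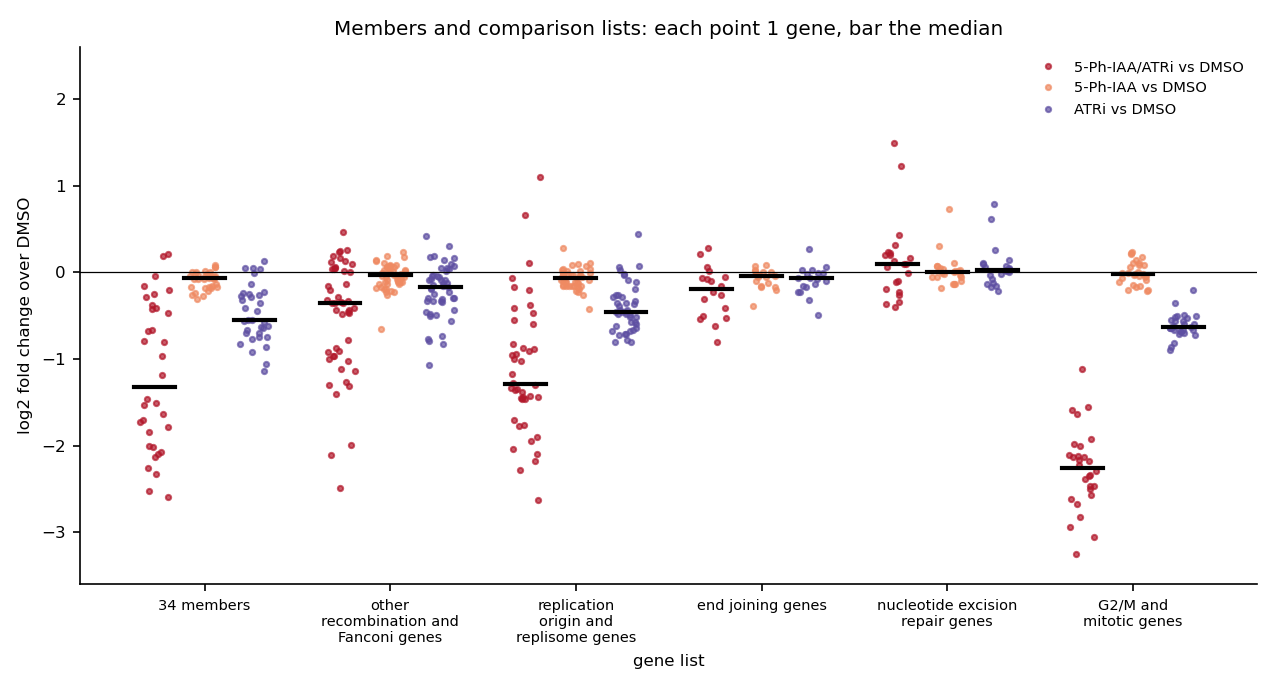
Log2 fold change over DMSO of every gene of each list, with 1 point per gene, colours for the 3 treatments and a bar at the median. With 5-Ph-IAA/ATRi the 34 genes have a median of -1.32, between -2.26 for G2/M genes and -0.19 for end joining genes.

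Cell cycle regulators are given beside these values. Of 16 E2F, RB and p21 genes, 6 fell, 1 rose and 9 did not pass with 5-Ph-IAA/ATRi relative to DMSO (edgeR), with a median log2 change of -0.36. CDKN1A, which encodes the CDK inhibitor p21, rose by log2 3.24 with 5-Ph-IAA/ATRi relative to DMSO, while MYBL2 changed by -2.26, FOXM1 by -2.17 and E2F1 by -1.82, all past the threshold by edgeR. The log2 change of RBL1 was -1.57 and that of E2F7 -0.18, and neither passed. The part of the cell cycle in the levels of the 34 genes was not tested.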

How the data were processed

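Poly(A) RNA of 12 libraries was measured, 3 in each of 4 groups. The authors deposited estimated counts per gene made with Salmon 1.10.1, per the submitters' processing notes, which further name STAR 2.7.9a and SAMtools 1.17, for trimming and read checks cutadapt 3.4, Trim Galore 0.6.7 and FastQC 0.12.1, and the build GRCh38.p14. The kit was directional per the labels' protocols. No source used here gives the annotation release, the strand setting or read filters, so genes with overlapping exons are uncertain. Among the deposited estimated counts 13.6% were fractional, and all were rounded to integers before testing.

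Genes were filtered with filterByExpr (minimum count 10, minimum total 15), which kept 18049 genes, and were normalised by TMM. Differences were tested with edgeR 4.0.16's quasi-likelihood F test in R 4.3.3, with 1 mean per group over all 12 libraries, and p values were adjusted by Benjamini-Hochberg over the 18049 genes, and 0.05 was the threshold. The median biological coefficient of variation was 0.214. Levels are TMM-scaled CPM, and a standard error is the log2 change divided by the root of F. Alternatives included DESeq2 1.42.0, limma-voom (limma 3.58.1), other scalings and filters, unrounded counts, a fit of the compared groups alone, a replicate block, the mitochondrial share as a covariate, and leaving libraries out. The procedure was tested on simulated data. No deposited library repeated another of its group, since pairs of replicates within a group differed by a chi-square of 9.59 to 146.6 per gene. Libraries of different groups were not compared in this way.

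The 34 genes, the comparison lists and the pairs of partners were chosen with earlier results of these data known. Values in every library are given for up to 20 genes past the threshold with the smallest p in 5-Ph-IAA/ATRi against DMSO, and for BRCA1, BRCA2, FANCA, FANCD2 and FANCI. Other genes are given by range or log2 change. PALB2, MUS81 and HELQ are exceptions, given by library with 5-Ph-IAA/ATRi and DMSO although they did not pass. Of the further recombination and Fanconi genes the 4 with the smallest p are named, and RAD52 was added after its value was seen. Exon overlaps come from a GENCODE annotation of GRCh38. Promoters come from RefSeq and matched 32 of the 34 genes by symbol.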

Additional observations from a re-analysis of the deposited data

How the results depend on the processing

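With 5-Ph-IAA/ATRi against DMSO, 21 of the 34 genes fell, and leaving out 1 library gave 12 to 22, with a median log2 change of -1.58 to -0.97. The remaining alternatives gave 15 to 24. Against 5-Ph-IAA, the count was 16, with 9 to 17 when 1 library was left out and 8 without the library of highest mitochondrial share in each group. Against ATRi, the count was 5, with 0 to 1 when 1 library was left out. It was 3 with scaling by total counts, 10 with no count filter, 11 with DESeq2, 1 with limma-voom, 12 with only the groups compared, 19 with the replicate block, 14 with the mitochondrial covariate and 0 without the library of highest mitochondrial share in each group. With ATRi against DMSO, the count of 0 became 3 with the replicate block (BRCA1, FANCI and GEN1) and 1 with the mitochondrial covariate (RBBP8). The interaction, also 0, became 7 with the replicate block. 5-Ph-IAA against DMSO gave 0 in every fit. Each alternative fit calls its own share of all genes, which is not given here. The cause of these shifts was not tested, and leaving libraries out also makes the sample smaller. FANCE turned to 0.041 on the log2 scale with the mitochondrial covariate. FAN1, at -0.04, turned to 0.12 with that covariate and ranged from -0.17 to 0.058 when 1 library was left out, being 0.051 without 5-Ph-IAA/ATRi replicate 2 and 0.058 without DMSO replicate 3. Neither gene passed in any of these fits.

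Libraries of different groups carry the same numbers, which the titles call sets, and the labels do not say what a set shares. Across 18 pairs of same-numbered libraries, deviations from the group means correlated at -0.09 to 0.76, with 13 over 0.1. The 36 pairs with other numbers correlated at -0.74 to 0.59, with 8 over 0.1. For 8 of 12 libraries the mean correlation was highest with the libraries of their own number. Not every same-numbered pair was over 0.1, and these correlations do not settle whether sets are shared experiments. The main fit did not take the numbers as pairing. With the replicate block 24 of the 34 genes fell with 5-Ph-IAA/ATRi against DMSO. The counts against ATRi and for the interaction were also higher with that block, as given above. The small number of libraries per group, and the spread among DMSO libraries, limit what these tests can detect, and genes that missed the threshold may still differ.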
